A study of Mus musculus with 5 samples.

Results

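The genes described here encode the machinery that copies DNA: the origin recognition complex, the factors that load the replicative helicase, the helicase and its activators, the replicative polymerases, the sliding clamp and its loader, and the proteins that bind single strands, mature Okazaki fragments and supply deoxynucleotides. They were chosen by gene symbol and not by their values, though earlier results of these data were known. The rule took the Mcm, Orc, Rfc, Gins, Prim, Pola, Pold, Pole, Rpa and Rrm genes together with Pcna, Cdc6, Cdc45, Cdt1, Gmnn, Fen1 and Lig1. The array held 48 such genes among 16032 named genes, each with 1 probe. Of these, 35 carried their current symbol on the array and 13 were found through an older name, such as Orc6l for Orc6. Mcm9 was not analysed here.

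RNA was measured on 5 arrays of 1 colour, with 1 array for each culture. Akt-spheres of line 42 and of line 21 (2 arrays) were PGC-like colonies, that is, likened by the study to primordial germ cells, grown on OP9 stromal cells with 1 µM 4-hydroxytamoxifen (4OHT). Reverted cells (1 array) were ESC-like cells, labelled in 1 field as reverted from line 21 sphere cells and in another as obtained by transient 4OHT on mouse embryonic fibroblasts (MEFs); both were taken to describe the same cells. No 4OHT dose was listed for the array of reverted cells. Line 21 embryonic stem (ES) cells with 1 µM 4OHT (1 array) and without 4OHT (1 array) were kept in ES cell culture. All were derived from the male ES cell line E14tg2a of strain 129 and carried myr-Akt-Mer, a membrane-bound Akt kinase fused to a hormone receptor domain that 4OHT switches on. The starting ES cells of line 42 are not analysed here, and line and sphere state therefore cannot be told apart in the line 42 array. Whether a line is 1 clone is not given in the sources used here, nor is whether any array repeats a culture, so the spread between arrays may be in part technical.

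In every dividing cell the origin recognition complex marks origins, Cdc6 and Cdt1 load the Mcm helicase onto them in G1, and Cdc45 and the Gins complex turn the helicase on in S phase. Primase and polymerase alpha then start each strand, polymerases epsilon and delta extend the leading and lagging strand, and the clamp Pcna, placed by the Rfc loader, holds the polymerases on DNA. Mouse ES cells cycle fast with a short G1 phase, and many replication genes are known targets of E2F transcription factors. In a bulk sample, fewer cells in S phase and less RNA per cell cannot be told apart.

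None of the 48 genes passed the test between spheres and ES-type cultures, which 2.44% of all 10589 genes tested passed. For 48 genes, a count of 0 is near that share. The widest range among the 48 belonged to 1 gene with 1 low array. Orc6, a subunit of the origin recognition complex that helps to load the helicase, had an intensity of 185.67 in reverted cells, against 4087 and 3073 in spheres of lines 42 and 21, 6069 in ES cells with 4OHT and 4375 in ES cells without 4OHT. The next widest ranges were those of Gins2, Pole and Cdc45, at 3.53-fold, 3.47-fold and 3.44-fold between their highest and lowest array. Mcm7, a helicase subunit, stood out on another array, with a low reading in ES cells without 4OHT.

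The promoters of these 3 genes, Orc6 and Cdc45 for their low reading in reverted cells and Mcm7 for its low reading in ES cells without 4OHT, are printed from RefSeq (GRCm38.p6), from 250 bases before to 50 after the start. They lie at chr8:85299382-85299681 on the plus strand (Orc6), chr16:18811923-18812222 on the minus strand (Cdc45) and chr5:138171834-138172133 on the minus strand (Mcm7, the first of its 2 windows in the table). Capitals mark a CCAAT box (CCAAT) or an E2F-type word (TTTCCCGC, TTTCGCGC, TTTGCCGC or TTTGGCGC), each on either strand.
Orc6: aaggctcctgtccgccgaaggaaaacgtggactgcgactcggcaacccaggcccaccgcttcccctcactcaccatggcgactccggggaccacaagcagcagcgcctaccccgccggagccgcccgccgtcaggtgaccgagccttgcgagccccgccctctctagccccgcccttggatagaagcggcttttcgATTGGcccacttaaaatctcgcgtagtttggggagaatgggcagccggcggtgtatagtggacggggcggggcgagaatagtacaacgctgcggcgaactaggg
Cdc45: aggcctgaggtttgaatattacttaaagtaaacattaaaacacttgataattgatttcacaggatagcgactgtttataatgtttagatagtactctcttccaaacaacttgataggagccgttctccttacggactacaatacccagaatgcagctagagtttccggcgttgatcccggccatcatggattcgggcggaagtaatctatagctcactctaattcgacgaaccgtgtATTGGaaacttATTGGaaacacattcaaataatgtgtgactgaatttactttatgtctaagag
Mcm7: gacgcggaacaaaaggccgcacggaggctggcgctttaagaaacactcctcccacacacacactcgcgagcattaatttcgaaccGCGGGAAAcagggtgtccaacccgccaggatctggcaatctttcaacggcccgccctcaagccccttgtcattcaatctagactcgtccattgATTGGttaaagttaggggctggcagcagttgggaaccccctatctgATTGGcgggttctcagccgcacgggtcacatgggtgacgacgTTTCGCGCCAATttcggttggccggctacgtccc
The Orc6 window held 1 CCAAT box and 0 E2F-type words, the Cdc45 window 2 and 0, and the printed Mcm7 window 3 and 2. In that Mcm7 window 1 word of each kind overlapped. The second Mcm7 window, not printed, held 1 CCAAT box and 0 E2F-type words. RefSeq promoters were at hand for 39 members, in 48 windows, of which 18 (37.5%) held an E2F-type word, belonging to 17 genes. Pole and Gins2 were not among the 39. The share was 3.91% of 10884 windows of genes compared on the arrays and 2.26% of all 32851 windows. A CCAAT box stood in 27 member windows (56.2%), against 37.4% of all windows and 37.4% of those of genes compared. These matches describe letters in a fixed window and say nothing of which factor binds there.

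**Figure D1:**
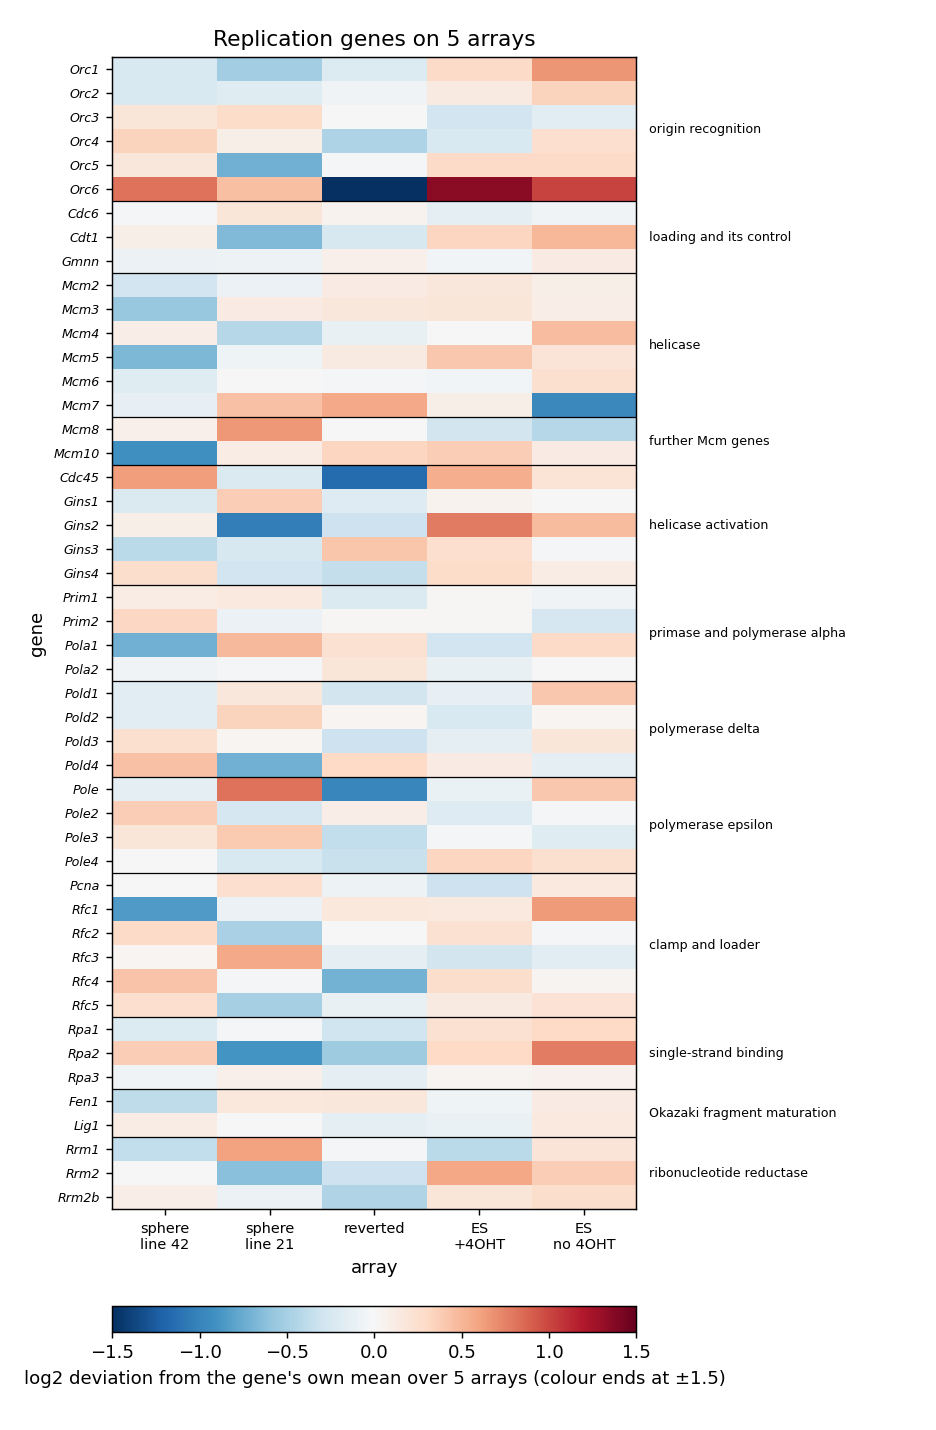
Each row is 1 of the 48 replication genes, grouped by role, and each column 1 array; colour gives the log2 deviation from the gene's own mean over the 5 arrays, with red above and blue below it. Most rows are pale, and the darkest cell is Orc6 in reverted cells.

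Across the series, 1392 to 2084 of 22871 probes per array had no value, and the median intensity was about 50 on each array (49.995 to 50.015). All 48 members had a value on every array, and 47 reached the 40th percentile of intensity (28.566 to 29.314) on each of them, Rrm2b being the exception. The 6 ES cell markers summed to 15348 and 11028 in spheres of lines 42 and 21, against 84625 to 97220 on the 3 ES-type arrays (reverted cells and both ES cell cultures). Most of the ES-type sum was Dppa5a (6732 and 1014 in spheres, 49687 to 58362 on ES-type arrays), while Nanog read 4003 and 5523 in spheres and 3839 to 5480 on ES-type arrays. The 6 germ cell markers summed to 12377 and 3287 in spheres, against 1337 to 3487 on the ES-type arrays, and most of the line 42 sum was Dppa3 (9198, against 223 in line 21 spheres). Prdm1 read 21.1 and 47.4 in spheres, against 30.8 to 55.8. Tfap2c (1581 and 1943 in spheres, against 497 to 998.5) and Nanos3 (1084 and 476, against 219 to 326) read higher in both sphere lines. The readings of Kit (66.5 and 213, against 11.2 to 73.0) and Ddx4 (426 and 385, against 405 to 470) overlapped. The 10 markers of OP9 stroma and fibroblasts summed to 272 and 393 in spheres and to 1025 to 1191 on the ES-type arrays. Most of the ES-type sum was Thy1 (16.1 and 24.8 in spheres, 230 to 464 on ES-type arrays) and Acta2 (62.4 and 80.7, against 415 to 606). Col1a2 read 42.0 and 101 in spheres, against 50.0 to 102. The 5 adipocyte markers summed to 202 and 241 in spheres against 40.9 to 63.6, mostly through Fabp4 (143 and 183 in spheres). Only 3 of 5 blood markers were on the array, summing to 87.8 and 69.2 in spheres and 75.7 to 104.8 on the ES-type arrays. No marker was listed at 0, and Pparg and Cd36 each had an empty cell on 1 ES-type array. The part of these cells in the readings below was not tested.

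The 2 sphere arrays were set against the 3 ES-type arrays taken as 1 mean. This asks whether replication genes differ between PGC-like spheres and the average of the ES-like cultures. Of the 48 members, limma called 0 at an adjusted p of 0.05, and 0 reached an unadjusted p under 0.05; the lowest limma adjusted p was 0.274 (Rfc1). Over all 10589 genes tested, 2.44% were called (102 higher and 156 lower) and 18.9% had an unadjusted p under 0.05. The count over all genes moved to 0 when the array of ES cells that had no 4OHT was left out, to 32 when that with 4OHT was, to 148 when line 21 spheres were and to 98 when line 42 spheres were, while that of members was 0 in each case. With a sphere line left out, 1 sphere array remained. Mcm10 then differed by log2 -1.19 without line 21 spheres, and Gins2 by -1.35 and Mcm8 by 0.89 without line 42 spheres. At an unadjusted p under 0.05, 1 member was counted without reverted cells (Orc1, log2 -0.85, SE 0.28). The share of all genes at that limit is not given for that fit, and was 18.9% with all 5 arrays. The median log2 difference of the members (spheres minus ES-type) was -0.04, against 0.00 over all genes, with 22 members above 0 and 26 below. Under quantile normalization the medians were 0.01 and 0.03. The median absolute difference was 0.25 for members and 0.35 for all genes, and 38 members lay within 0.5 of 0 on the log2 scale, as did 62.6% of all genes. The median standard error of a member's difference was 0.28, so differences of this size could not be told from the spread between arrays. That spread is not one of replicates alone, since it holds the differences between the 3 ES-type cultures and between the sphere lines. Here and below a log2 difference is on the log2(intensity + 1) scale after centring of each array on its median.

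Both sphere arrays lay on the same side of all 3 ES-type arrays for 13 members (5 above, 8 below), against 37.5% of all genes compared. In no member was the distance 2-fold or 1.5-fold, while 4.4% of all genes were at least 2-fold and 9.08% at least 1.5-fold apart in both sphere lines. The 8 below were Orc1, Orc2, Gmnn, Mcm2, Mcm5, Mcm10, Gins3 and Rfc1, and the 5 above were Orc3, Mcm8, Prim1, Pole3 and Rfc3. Mcm10 counted as below after centring only, since the intensity in line 21 spheres (873.42) was above that in ES cells without 4OHT (847.07). Among these, Rfc1, the large subunit of the clamp loader, read 195.8 and 322.74 in spheres of lines 42 and 21, against 394, 402 and 518 in reverted cells and in ES cells with and without 4OHT (log2 -0.78, SE 0.33, limma adjusted p = 0.274). Mcm5, a helicase subunit, read 1509 and 2219 in spheres, against 2643, 3259 and 2553 in the same 3 cultures (log2 -0.61, SE 0.27, limma adjusted p = 0.301). Both genes were lowest in line 42 spheres, and the spheres of line 21 lay close below the ES-type range.

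Of the other members with wide differences in this comparison, Gins3, a subunit of the Gins complex, had 101.62 and 109.42 in spheres of lines 42 and 21, against 179.52, 164.71 and 123.7 in reverted cells and in ES cells with and without 4OHT (log2 -0.54, SE 0.24, limma adjusted p = 0.302). Mcm8, a helicase of the Mcm family that acts in recombination and meiosis, had 194.52 and 280.14 in spheres, against 183.34, 156.22 and 127.49 (log2 0.60, SE 0.28, limma adjusted p = 0.321). The sphere and ES-type readings of both genes did not overlap, but the nearest ones lay close together. Orc1, the largest subunit of the origin recognition complex and an ATPase, had 313.65 and 245.91 in spheres, against 318.1, 458.98 and 540.16 (log2 -0.62, SE 0.32, limma adjusted p = 0.360). Its highest readings were those of the ES cell arrays, and reverted cells read almost as line 42 spheres did.

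A further 4 members stood among the 10 with the largest fitted differences. Gins2, a helicase activator, read 860.28 and 379.62 in spheres of lines 42 and 21, against 652.34, 1428 and 1049 in reverted cells and in ES cells with and without 4OHT (log2 -0.79, SE 0.47, limma adjusted p = 0.425). Mcm10, which helps to start forks, read 441.32 and 873.42 in spheres, against 1045, 1112 and 847.07 in the same 3 cultures (log2 -0.68, SE 0.35, limma adjusted p = 0.366). For both genes 1 sphere line was low and the other near or within the ES-type range, line 21 for Gins2 and line 42 for Mcm10. Rrm2, the small subunit of ribonucleotide reductase, whose level follows the cell cycle, read 1999 and 1246 in spheres, against 1614, 3068 and 2411 (log2 -0.53, SE 0.36, limma adjusted p = 0.496). Pole, the catalytic subunit of polymerase epsilon, read 223.42 and 418.39 in spheres, against 124.36, 235.04 and 304.6 (log2 0.56, SE 0.49, limma adjusted p = 0.606). The sphere and ES-type readings of Rrm2 and Pole overlapped.

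Orc6 itself had the largest fitted value (log2 1.06, SE 1.49, limma adjusted p = 0.761), which rests on the single low reading in reverted cells. Without that array its difference was -0.55 (SE 0.29, limma adjusted p = 0.355), so the direction turned. Pcna, the sliding clamp and a common marker of cycling cells, read 18058 and 20909 in spheres of lines 42 and 21, against 17181, 15071 and 18739 in reverted cells and in ES cells with and without 4OHT (log2 0.20, SE 0.25, limma adjusted p = 0.728). The sphere values of Pcna lay within or just above those of the other cultures. Gmnn, the inhibitor of Cdt1, and Rpa3, the small subunit of the single-strand binding complex, both differed by 1.16-fold between their highest and lowest array, the narrowest range of all members.

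Over the 5 arrays, 17 of the 48 members (35.4%) had a highest reading at least 2-fold above the lowest, against 47.5% of all genes compared. With a stricter filter, at the 60th percentile, the count was 16 of 45 members against 48.3%. A 4-fold range was seen for 1 member, Orc6 (31.7-fold), against 14.6% of genes. The median range was 1.69-fold for members and 1.94-fold for all genes, and 16 members stayed within 1.5-fold, against 21.9% of genes. The members' probes were bright, with a median over the probes of 1065 for the mean intensity against 155 for all genes compared, and probe brightness depends on the probe as well as on the RNA. Without the reverted array, 13 members spanned 2-fold, against 41.6% of all genes.

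By role, the origin recognition genes other than Orc6 spanned from 1.48-fold (Orc3 and Orc2) to 2.27-fold (Orc1). Among the loading factors, Cdc6 spanned 1.26-fold and Cdt1 2.24-fold, with its lowest reading of 1167 in line 21 spheres against its highest of 2532 in ES cells without 4OHT. The 6 subunits of the Mcm2 to Mcm7 helicase, which form 1 ring, spanned from 1.34-fold (Mcm6) to 2.90-fold (Mcm7), and Mcm8 and Mcm10 spanned 2.12-fold and 2.46-fold. Among the helicase activators, Gins1, Gins3 and Gins4 spanned at most 1.76-fold, Cdc45 3.44-fold and Gins2 3.53-fold. Of the primase and polymerase alpha genes, Prim1, Prim2 and Pola2 spanned at most 1.47-fold and Pola1, the catalytic subunit, 2.31-fold. Polymerase delta genes Pold1, Pold2 and Pold3 spanned at most 1.60-fold and Pold4 2.24-fold, and of polymerase epsilon Pole2, Pole3 and Pole4 spanned at most 1.68-fold and Pole 3.47-fold. Among the loader subunits, Rfc2, Rfc3 and Rfc5 spanned at most 1.79-fold, Rfc4 2.20-fold and Rfc1 2.83-fold. The nuclease Fen1 and the ligase Lig1, which finish Okazaki fragments, spanned 1.46-fold and 1.22-fold. Of the single-strand binding genes, Rpa3 and Rpa1 spanned 1.16-fold and 1.51-fold and Rpa2 3.15-fold, and of the reductase genes Rrm2b spanned 1.64-fold and Rrm2 2.32-fold, with Rrm1 between them.

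Single arrays were then compared, for which there is no replicate check, so members at least 2-fold apart were counted and set beside the same share over all genes. Several of these comparisons share an array, so they are not independent of each other. Between the spheres of line 42 and line 21, the only pair of one group, 3 members read at least 2-fold higher in line 42 and 2 lower, 10.4% of the 48, against 15.7% of 9954 genes (7.87% higher, 7.81% lower). The members' median absolute log2 difference there was 0.51, against 0.41 for all genes. This spread between arrays of one state also holds any difference between the lines, so it is not a measure of noise alone. It was not smaller than the members' values of 0.22 to 0.41 in the other 5 comparisons.

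Rpa2, the middle subunit of the single-strand binding complex, read 1345 in line 42 and 540 in line 21 spheres, a log2 difference of 1.26. Gins2 read 860.28 in line 42 and 379.62 in line 21 spheres (log2 1.13), and Pold4, the small subunit of polymerase delta, 78.66 and 33.23 (log2 1.17). Pola1 read 392.49 in line 42 and 874.35 in line 21 spheres (log2 -1.21) and Mcm10 441.32 and 873.42 (log2 -1.04). In reverted cells and in ES cells with and without 4OHT, Pola1 read 758.59, 540.68 and 733.45 and Pold4 70.63, 64.38 and 48.39, between the readings of the sphere lines for both genes. Mcm10 was the only member at least 2-fold beyond the other 4 arrays in line 42 spheres, where 3.48% of all genes were. In line 21 spheres 0 members were, against 3.29% of genes.

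ES cells with 4OHT were compared with ES cells without it, with 1 array each. The kinase, 4OHT itself and differences between arrays cannot be told apart in this pair. Mcm7 read 5295 with and 2323 without 4OHT (log2 1.05), and it was the only member 2-fold apart, 2.08% of 48 against 4.95% of 9852 genes (2.56% higher, 2.4% lower). The other helicase subunits read 1042, 1597, 2520, 3259 and 2829 with 4OHT for Mcm2, Mcm3, Mcm4, Mcm5 and Mcm6, against 898, 1365, 3175, 2553 and 3133 without. None of these 5 subunits was 1.5-fold apart between the cultures, where 17.2% of all genes were. For 5 genes, a count of 0 is near that share and says little. The members' median log2 difference was -0.08 and that of all genes -0.03. Mcm7 also read 4477 and 6383 in spheres of lines 42 and 21 and 7211 in reverted cells, so ES cells without 4OHT held its lowest value. Its highest value was that of reverted cells, for which no 4OHT dose was listed either. At 2-fold, 0 members lay beyond the other 4 arrays in ES cells without 4OHT, against 0.368% of all genes. At 1.5-fold Mcm7 alone did, against 1.83%.

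Line 21 spheres were set against ES cells with 4OHT, the culture of the same line that also had 4OHT. In spheres 0 members read 2-fold higher or more and 4 read 2-fold lower or more (8.33%), against 26.5% of 10208 genes (12.7% higher, 13.8% lower). Gins2 read 380 in spheres and 1428 in ES cells with 4OHT (log2 -1.82), and Rrm2 1246 and 3068 (log2 -1.21). Rpa2 read 540 in spheres and 1309 in ES cells with 4OHT (log2 -1.19), and Orc5, a further origin recognition subunit, 430.46 and 918.76 (2.01-fold lower). The other Orc5 readings were 830.68 in line 42 spheres, 724.17 in reverted cells and 839.68 in ES cells without 4OHT. Line 21 spheres thus held its lowest value, 1.62-fold below reverted cells. Orc5 lay at the limit and fell below it with a pseudocount of 16 and with quantile normalization. Under quantile normalization 2 members were 2-fold higher and 3 lower, so the split of the 4 in 1 direction depends on the scaling. Rrm1, the large subunit of the reductase, read 2037 in spheres and 1082 in ES cells with 4OHT, just under 2-fold higher. The subunits Rrm1 and Rrm2 thus read in opposite directions on this pair of arrays.

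For spheres of line 42 the same ES cell array gave 0 members higher and 2 lower (4.17%), against 21.0% of 10170 genes (9.73% higher, 11.2% lower). These were Mcm10, with 441.32 in spheres and 1112 in ES cells with 4OHT (log2 -1.30), and Mcm5 (log2 -1.08). The members named above for line 21 spheres read 860.28 (Gins2), 1999 (Rrm2), 1345 (Rpa2) and 831 (Orc5) in line 42 spheres.

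**Figure D2:**
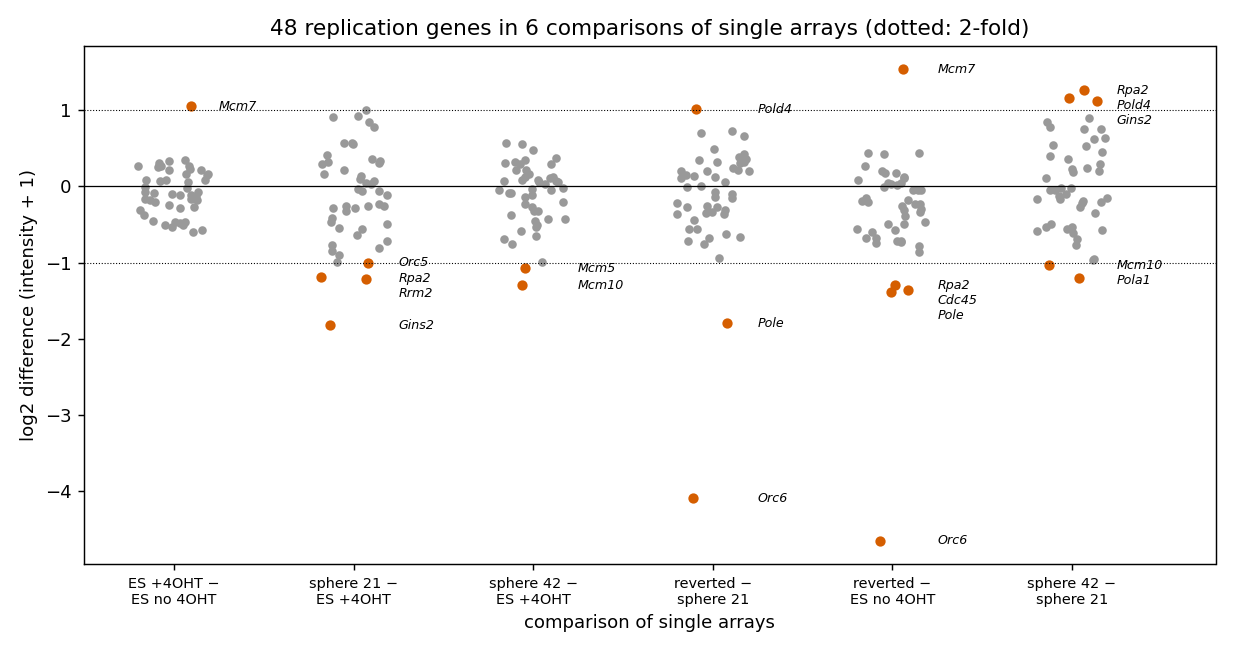
Each point is 1 of the 48 genes, placed by its log2 difference between the 2 arrays named below, first minus second; dotted lines mark 2-fold, and genes beyond them are orange and named from top to bottom. The 2 Orc6 points for reverted cells, at -4.09 and -4.65, lie far below all others.

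Reverted cells were set against line 21 spheres, from which they came by 1 of their labels, and against ES cells without 4OHT. Orc6 read 185.67 in reverted cells and 3073 in line 21 spheres, a 17.1-fold lower reading (log2 -4.09), which was the 14th lowest difference of 10034 genes. Against ES cells without 4OHT it was 25.1-fold lower (log2 -4.65), the 6th lowest of 9939 genes. Orc6 lay 17.1-fold below its next lowest array, the 2nd widest such gap downwards of 10589 genes. It was the only member at least 2-fold beyond the other 4 arrays in reverted cells, where 1.76% of all genes were, while in ES cells with 4OHT 0 members were, against 1.38% of genes. At 185.67 the probe was still above the 60th percentile of that array (91.59). The other origin recognition genes read 318, 870, 58.1, 500.29 and 724 in reverted cells for Orc1, Orc2, Orc3, Orc4 and Orc5, against 540.16, 1062, 47.9, 769.76 and 839.68 in ES cells without 4OHT. The log2 differences of these 5 were -0.86, -0.39, 0.17, -0.72 and -0.31, so that 4 of them also read lower in reverted cells. Of the 5, 0 were 2-fold apart, a limit that 11.5% of all genes passed. With 5 genes that count is near the share and says little.

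Against line 21 spheres, reverted cells had 1 member at least 2-fold higher and 2 lower (6.25%), while the share over all genes was 17.0% (9.41% higher, 7.58% lower). Beside Orc6 these were Pole, with 124.36 in reverted cells and 418.39 in line 21 spheres (log2 -1.79), and Pold4, with 70.63 and 33.23 (log2 1.01). Pold4 fell below the limit with a pseudocount of 16.

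Against ES cells without 4OHT, reverted cells had 1 member higher and 4 lower (10.4%), while the share over all genes was 11.5% (5.18% higher, 6.34% lower). Mcm7 read 7211 in reverted cells and 2323 in ES cells without 4OHT (log2 1.53). Pole read 124.36 in reverted cells and 304.6 in ES cells without 4OHT (log2 -1.38), and Cdc45 read 744 in reverted cells and 1780.0 in ES cells without 4OHT (log2 -1.36). Rpa2 read 715 in reverted cells and 1646 in ES cells without 4OHT (log2 -1.30). The readings of Cdc45 were 2569.9 and 1375 in spheres of lines 42 and 21 and 2480.0 in ES cells with 4OHT, so that reverted cells held its lowest value. For Pole the other readings were 223.42 and 418.39 in spheres of lines 42 and 21 and 235.04 in ES cells with 4OHT, again all above that of reverted cells. Rpa2 differed in this respect, since line 21 spheres read 540, below reverted cells. In all, 15 of 48 members had their lowest reading in reverted cells, against 17.9% of all genes, and 33 of 48 lay below ES cells without 4OHT, against 49.9% of all genes, with a median log2 difference of -0.23 against 0.00 for all genes. Under quantile normalization this median was -0.10, against 0.05 for all genes.

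**Figure D3:**
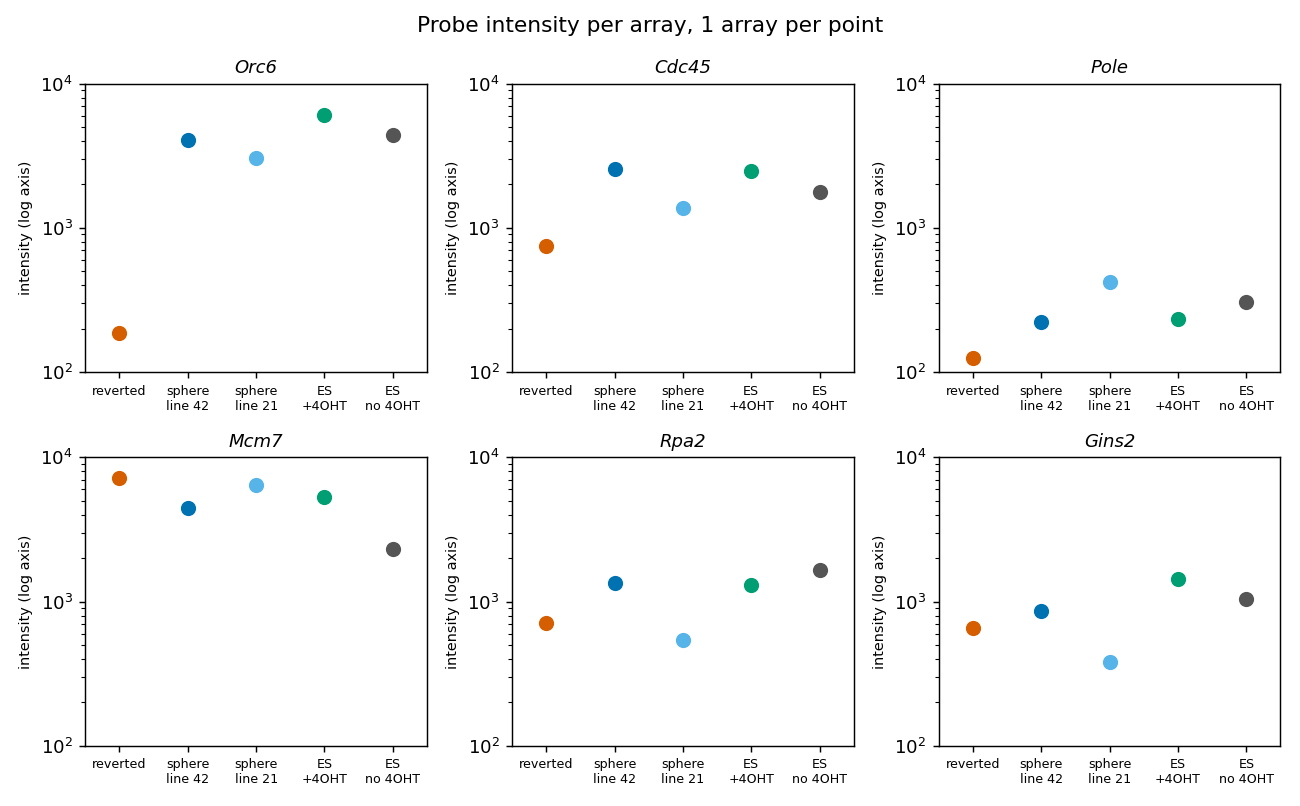
Probe intensity on a log axis for 6 replication genes, with 1 point for each of the 5 arrays. Reverted cells hold the lowest point for Orc6, Cdc45 and Pole, ES cells without 4OHT for Mcm7, and line 21 spheres for Rpa2 and Gins2.

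**Figure D4:**
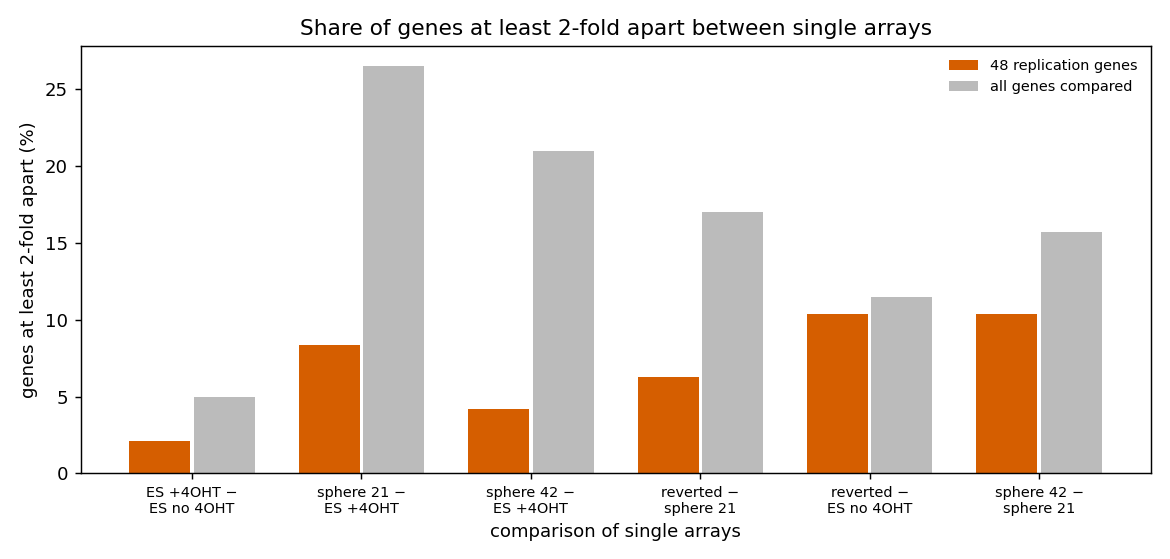
Bars give the percentage of genes at least 2-fold apart between the 2 arrays named below, for the 48 replication genes (orange) and for all genes compared (grey). At this limit the orange bar is the lower one in all 6 comparisons, with 2.08% against 4.95% at the left and 10.4% against 11.5% for reverted cells and ES cells without 4OHT; for that pair the shares are 29.2% and 28.8% at 1.5-fold, and 10.4% and 8.18% with a pseudocount of 16.

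Genes that work with this machinery were counted in the same way. Of 27 fork and initiation partners tested, limma called 0 (1 at an unadjusted p under 0.05), of 9 nucleotide supply genes 0 (0 unadjusted) and of 12 other DNA polymerases 0 (2 unadjusted), and 0 in all 3 lists were 2-fold from every ES-type array in both sphere lines. Over all genes, limma called 2.44%, 18.9% had an unadjusted p under 0.05, and 4.4% were 2-fold apart in this way. In lists this short, counts of 0 called or 2-fold apart are near those shares and say little. The median log2 difference of spheres minus ES-type arrays was -0.09, 0.10 and 0.34 for these 3 lists, in the same order. Primpol, a primase that can prime again beyond a stalled fork, read 139.18 and 131.74 in spheres of lines 42 and 21, against 61.07, 102.6 and 65.66 in reverted cells and in ES cells with and without 4OHT (log2 0.86, SE 0.28, limma adjusted p = 0.181). Poll, a repair polymerase, read 179.43 and 114.17 in spheres, against 81.74, 81.74 and 83.58 (log2 0.79, SE 0.26, limma adjusted p = 0.187). Uhrf1, which brings Dnmt1 to newly copied DNA, read 1398 and 1334 in spheres, against 1785, 2584 and 2667 (log2 -0.75, SE 0.28, limma adjusted p = 0.226). Rnaseh2c, a subunit of the enzyme that removes RNA from DNA, had a log2 difference of 0.71 (SE 0.36, limma adjusted p = 0.354).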

How the data were processed

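The authors deposited 1 table of probe intensity values, of 1 colour and on a linear scale. Per the labels' protocols, RNA was amplified to amino allyl RNA, dye-coupled and fragmented by the array maker's procedure (Toray). The sources used here give no scanner, background correction, normalization or rule for empty cells. Empty cells were not filled in. The number of arrays limits the precision.

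Symbols came from the platform annotation: 16264 probes had 1 symbol and 6607 none. Of 16087 symbols, 12239 were current in RefSeq (GRCm38.p6), 3787 had 1 synonym there, which replaced them, and 61 were left as they were. Each gene was represented by its probe with the highest mean. Values were taken to log2(value + 1) and the median of each array over the 18884 probes listed throughout was brought to a common level. A gene was compared if it had a value on the arrays compared and reached the 40th percentile on at least 1. Spheres and ES-type arrays were compared with limma 3.58.1 in R 4.3.3 (lmFit, eBayes, Benjamini-Hochberg over all genes, threshold 0.05, 3 residual degrees of freedom), tested on simulated data. The other 6 comparisons set single arrays side by side, with a limit of 2-fold. Members given with all values were those called, the 10 with the largest limma difference, those at least 2-fold apart (up to 6 a comparison), Pcna, Mcm7 and Orc6; Gmnn, Rpa3, Cdt1, Rrm1 and further subunits of the same complexes were added after their values were seen. The members and lists were chosen with earlier results of these data known. Alternatives were the pseudocount, centring, quantile normalization, filters, the lowest probe, an intensity trend, a mean per group, a 1.5-fold limit and leaving out each array.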

Additional observations from a re-analysis of the deposited data

How the results depend on the processing

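The count of replication genes called between spheres and ES-type arrays was 0 under each of the alternatives run, including all probes with or without a symbol (added after seeing the data, 283 probes called), and ranged from 0 to 0 when 1 array was left out. Over all genes the count was 258, 0 with a mean for each of the 4 groups (1 residual degree of freedom), and 0 to 284 when 1 array was left out. The count of members at least 2-fold from every ES-type array in both sphere lines was 0, and 0 to 1 when 1 array was left out: without line 21 spheres, Mcm10 was counted. The share of all genes is not given for that setting, and was 4.4% with all 5 arrays. With a limit of 1.5-fold in place of 2-fold, the single-array counts of members were 2 for ES cells with against without 4OHT (4.17%, against 17.2% of all genes), 16 and 6 for spheres of lines 21 and 42 against ES cells with 4OHT (33.3% and 12.5%, against 46.6% and 39.9%), 12 for reverted cells against line 21 spheres (25% against 34.1%), 14 for reverted cells against ES cells without 4OHT (29.2% against 28.8%) and 17 for line 42 against line 21 spheres (35.4% against 35.6%). The other alternatives kept each single-array count within 1.5 times. Each member has 1 probe, so only the pseudocount, no centring and quantile normalization could move a single value. Of 60 such values of members at least 2-fold apart, 55 stayed past the limit, 5 lost it (Orc5, Pold4 and Mcm10) and 0 turned direction, and the stricter filter left out Pold4. Without centring, the median of all genes between ES cells with and without 4OHT was 0.11 in place of -0.03, and that of the members 0.06 in place of -0.08. No paired analysis was possible because the labels give no replicate numbers and 3 of the 4 groups have 1 array. An unadjusted p under 0.05 in limma was reached by 1 member with a pseudocount of 16 and by 1 with no centring. The share of all genes at that limit is not given for these settings. In the main fit 0 members and 18.9% of all genes reached it. Depth is unknown for these arrays, and their number limits the precision.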

Other observations

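The probes of genes next to Orc6 in RefSeq order were read as well, a choice made after the values of Orc6 were seen. Of the 6 protein-coding neighbours on each side, 6 passed the filter on all 5 arrays. Vps35, a sorting protein of endosomes and the nearest on one side, read 1747.0 in reverted cells and 1748 in ES cells without 4OHT (log2 -0.10). For 4921524J17Rik, Gpt2, Dnaja2, Itfg1 and Man2b1 the log2 differences between the same arrays were -0.41, -0.97, 1.24, 0.31 and 0.06. None of these 6 neighbours was 2-fold lower in reverted cells, a limit that 6.34% of all genes passed, so a count of 0 says little. Gpt2 came close to it at low readings, 17.9 in reverted cells and 33.52 in ES cells without 4OHT. Dnaja2 was more than 2-fold higher in reverted cells. What lies behind the low Orc6 reading was not tested.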
